A study of Mus musculus with 12 samples.

Results

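The family of miR-99, miR-100 and miR-125 was followed across the colon and blood of mice with dextran sulfate sodium (DSS) colitis. Its members are the mature arms of the Mir99, Mir100 and Mir125 genes that were named for study, and all 9 were found among the 1978 rows of the miRNA count table, of which 1405 held a count in at least 1 library. The rows are mmu-mir-99a-5p, mmu-mir-99b-5p, mmu-mir-99b-3p, mmu-mir-100-5p, mmu-mir-125a-5p, mmu-mir-125a-3p, mmu-mir-125b-5p, mmu-mir-125b-1-3p and mmu-mir-125b-2-3p, written below as miR-99a-5p and so on. The suffix 5p or 3p names the strand of the precursor hairpin from which the mature miRNA is cut.

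Small RNA was sequenced from the colon and the whole blood of the same 6 wild-type C57BL/6 male mice, giving 12 libraries. In each tissue, 3 mice (numbers 1, 7 and 9) had drunk water with DSS, a polysaccharide toxic to the lining of the gut, at 1.5% (wt/vol) for 7 days before sacrifice on day 8, and 3 time-matched controls (numbers 2, 4 and 8) had drunk the same water without DSS. All were 8 weeks old when obtained, carried no transgene or deletion, and were selected from 10 mice by their disease activity index, so the sequenced mice are not a random draw of treated and untreated animals. Whole tissue was used, so each level is a mean over all cells of the colon or of the blood. In bulk tissue, fewer cells of a type and less RNA per cell cannot be told apart.

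The labels of the libraries do not give this grouping. Their disease field assigns colitis to mice 1, 2 and 4 and no colitis to mice 7, 8 and 9. In every library the fields for source and tissue contradict each other. The grouping used here follows the sets of mice named in the study, and the other was run as an alternative. The tissues fit the library names: miR-486a-5p and miR-486b-5p, erythroid miRNAs, made up 74.7% to 83% of the counts in blood and 0.251% to 0.442% in colon, and miR-143-3p of smooth muscle had a mean of 245000 CPM (counts per 1000000, after TMM scaling of the libraries) in colon and 318 in blood. A colon library had 15060553 to 20106226 counts and a blood library 21127134 to 32944792.

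Mature miRNAs guide Argonaute proteins to messenger RNAs, mostly through pairing of the seed, bases 2 to 8 from the 5′ end, and thereby lower the output of the targets. In mammals the genes of this family lie in clusters that hold a miR-99 or miR-100 gene, a let-7 gene and a miR-125 gene. The miR-125 arms are the vertebrate relatives of lin-4, which like let-7 was found as a timer of development in worms, and miR-125 members are known for their roles in blood stem cells and in leukocytes. The miR-99/100 arms are known as repressors of the growth kinase mTOR.

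The sequences are shown because the names do not tell which members can share targets. Among the 5p arms, miR-99a-5p, miR-99b-5p and miR-100-5p have a common seed, and miR-125a-5p and miR-125b-5p share another. They are printed 5′ to 3′ with the seed in capitals. All 9 members were matched to RefSeq (GRCm38.p6).
miR-99a-5p: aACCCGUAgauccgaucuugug
miR-100-5p: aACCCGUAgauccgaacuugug
miR-99b-5p: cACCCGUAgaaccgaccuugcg
miR-125a-5p: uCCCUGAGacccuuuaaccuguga
miR-125b-5p: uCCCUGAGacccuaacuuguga
miR-351-5p: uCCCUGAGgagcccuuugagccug

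The last of these, miR-351-5p, is not a member but was the other miRNA of the table with the miR-125 5p seed. Counting positions from 1 at the 5′ end, miR-99a-5p and miR-100-5p differ only by U16A, outside the seed. miR-99a-5p and miR-99b-5p differ by A1C, U11A, U16C and U21C. With a difference of 1 base, reads with a sequencing error could be counted for the wrong member of the pair miR-99a-5p and miR-100-5p, and their levels are uncertain to that extent.

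The 4 members from 3p arms each have a seed of their own within the family. They are shown because miR-125b-5p is cut from 2 genes with an identical mature sequence, and only the 3p arms tell these genes apart.
miR-125b-1-3p: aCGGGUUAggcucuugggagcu
miR-125b-2-3p: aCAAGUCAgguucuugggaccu
miR-125a-3p: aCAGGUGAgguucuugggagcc
miR-99b-3p: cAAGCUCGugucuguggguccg

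miR-125b-1-3p and miR-125b-2-3p differ by G3A, G4A, U7C, C11U and G20C, of which 3 positions lie in the seed. The seed of miR-99b-3p is shared with miR-99a-3p, which had 2 to 5 counts in the colon libraries and 0 in each blood library. miR-100-3p had 3 to 5 counts in colon and 0 in blood.

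The genes lie in 3 clusters on the plus strand of GRCm38, by the GENCODE annotation. Mir99a, Mirlet7c-1 and Mir125b-2 span 47408 bp at chr16:77598936-77646343, in introns of the non-coding host gene Mir99ahg, and Mir125b-2 also overlaps an exon of C130023A14Rik. Mir100, Mirlet7a-2 and Mir125b-1 span 50578 bp at chr9:41531425-41582002, in introns of the non-coding genes 3110039I08Rik and Gm49317. Mir100 also overlaps an exon of Gm48742 on the minus strand and Mir125b-1 an exon of Gm28119. Mir99b, Mirlet7e and Mir125a lie within 692 bp at chr17:17830188-17830879, in the protein-coding gene Spaca6, with Mir125a overlapping an exon. miR-99a-5p and miR-125b-2-3p therefore read out the chromosome 16 cluster, miR-100-5p and miR-125b-1-3p the chromosome 9 cluster, and the 4 arms of Mir99b and Mir125a the chromosome 17 cluster, while miR-125b-5p sums chromosomes 9 and 16.

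The family was abundant in colon and scarce in blood. Its 9 members made up 2.3% to 3.59% of the counts of a colon library and 0.0668% to 0.121% of a blood library. When names with an identical mature sequence were counted only once in the total, which removes the duplicate of miR-486, the share in blood was 0.109% to 0.196%. In colon the 5p arms ranked 22 (miR-125a-5p), 23 (miR-125b-5p), 24 (miR-99a-5p), 27 (miR-100-5p) and 35 (miR-99b-5p) of the 542 miRNAs tested. The first 4 of these did not differ beyond their spread, with means between 5790 ± 1230 CPM for miR-100-5p and 6840 ± 1160 CPM for miR-125a-5p (SD, n = 6), and miR-99b-5p stood lower at 3660 ± 349 CPM (SD, n = 6). Mature miRNAs are counted whole and the members are 22 or 24 bases long, so CPM was not divided by length. Whether the sequences were captured equally well was not tested.

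**Figure D1:**
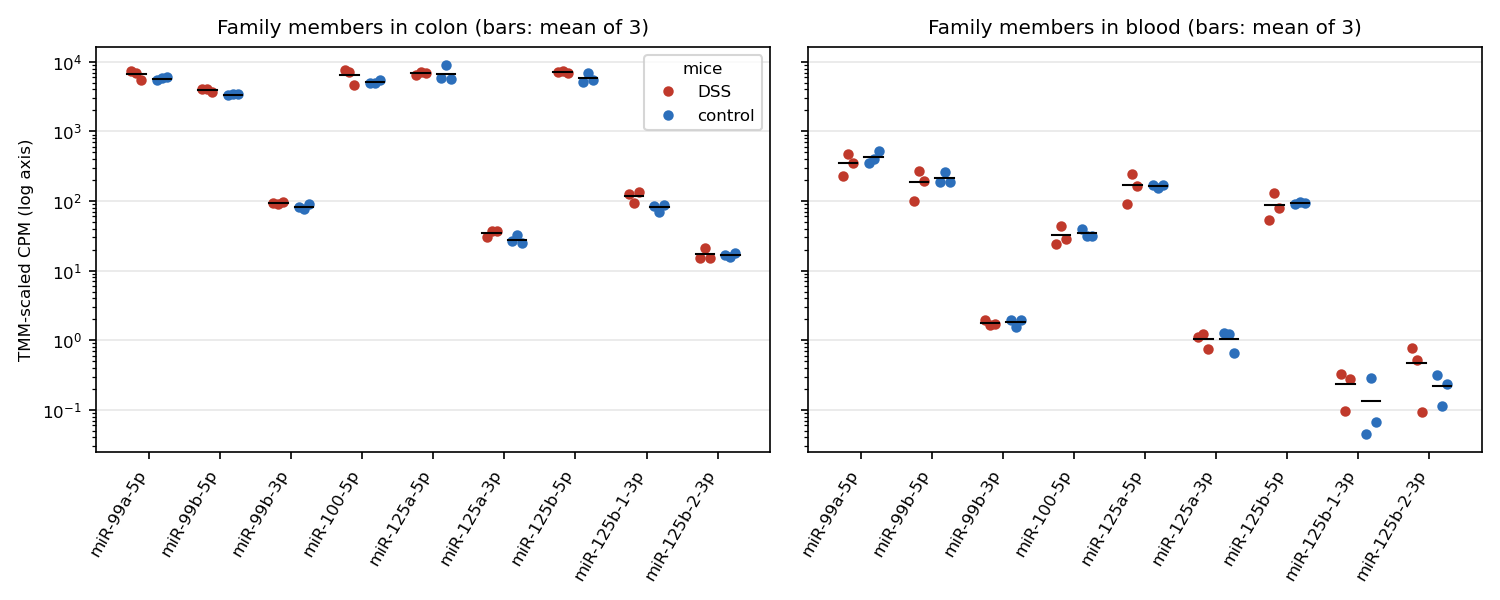
TMM-scaled CPM (log axis) of the 9 members in the 6 colon libraries (left) and the 6 blood libraries (right), scaled within each tissue; each point is a mouse, red for DSS and blue for control, and bars are means of 3. In colon the 5p arms lie between 3280 and 8870 CPM and the 3p arms between 15.2 and 133 CPM, and in blood miR-99a-5p is highest and miR-100-5p is the lowest 5p arm.

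The first question was whether colitis changed the family in the colon. All 9 members had a mean log2 fold change above 0 in the DSS mice, from 0.02 to 0.53, but 0 of 9 were SDE. SDE (significantly differentially expressed) means here an adjusted p of at most 0.05 over all miRNAs tested and a fold change over 1.5, by edgeR's quasi-likelihood test, and 10.1% of the 542 miRNAs tested in colon met it. A log2 fold change above 0 was found for 52.4% of all miRNAs tested. The median log2 fold change was 0.23 for the members and 0.04 for all miRNAs. All 9 members passed the filter on low counts.

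The member with the highest log2 fold change in colon was miR-125b-1-3p, the 3p arm of the chromosome 9 gene. It was at 126, 93.4 and 133 CPM in DSS mice 1, 7 and 9 and at 85.8, 69.6 and 87.8 CPM in control mice 2, 4 and 8. Every DSS mouse lay above every control, mouse 7 by little. The log2 fold change was 0.53 ± 0.18 (SE, n = 3 and 3), with a 95% interval of 0.10 to 0.97 and an adjusted p of 0.103 (edgeR). Its counterpart from chromosome 16, miR-125b-2-3p, was at 15.3, 21.3 and 15.2 CPM in the DSS mice and 16.9, 15.9 and 17.7 CPM in the controls. Here mouse 7 was the highest of all and the other DSS mice the lowest, so the groups overlapped. The log2 fold change was 0.04 ± 0.19 (adjusted p = 0.901, edgeR).

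miR-125b-5p, which both genes give, was at 7030, 7320 and 6950 CPM in DSS mice 1, 7 and 9 and at 5200, 6950 and 5400 CPM in the controls. The DSS mice were close together, and control mouse 4 reached the level of DSS mouse 9 to the digits given. The log2 fold change was 0.28 ± 0.15 (adjusted p = 0.245, edgeR).

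The arms with the miR-99/100 5p seed had log2 fold changes from 0.20 to 0.34. miR-100-5p was at 7560, 7120 and 4700 CPM in DSS mice 1, 7 and 9 and at 5020, 4920 and 5430 CPM in the controls. miR-99a-5p was at 7420, 6980 and 5410 CPM in the DSS mice and at 5450, 5790 and 6020 CPM in the controls. For both, mice 1 and 7 were above all controls and mouse 9 below them, so the groups overlapped. The log2 fold changes were 0.34 ± 0.20 for miR-100-5p (adjusted p = 0.279) and 0.20 ± 0.15 for miR-99a-5p (adjusted p = 0.411, both edgeR). miR-99b-5p did not show that split: it was at 4130, 4020 and 3680 CPM in the DSS mice and at 3280, 3420 and 3420 CPM in the controls, with no overlap (0.23 ± 0.11, adjusted p = 0.211, edgeR).

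The remaining arms come from the chromosome 17 cluster. miR-99b-3p was at 95, 91.4 and 97.6 CPM in the DSS mice and at 82.6, 77.1 and 89.7 CPM in the controls, again with no overlap but with a log2 fold change of only 0.19 ± 0.13 (adjusted p = 0.352, edgeR). miR-125a-5p, whose gene lies in the same compact cluster, was at 6520, 7250 and 6900 CPM in the DSS mice and at 5850, 8870 and 5650 CPM in the controls. Control mouse 4 was far above the others, and the log2 fold change was 0.02 ± 0.20, with a 95% interval of -0.45 to 0.49 (adjusted p = 0.943, edgeR). miR-125a-3p was at 30.2, 37.1 and 37.1 CPM in the DSS mice and at 26.8, 32.0 and 24.8 CPM in the controls, which overlapped through mouse 4 (0.32 ± 0.17, adjusted p = 0.245, edgeR).

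In all, 4 of the 9 members (miR-99b-5p, miR-99b-3p, miR-125b-5p and miR-125b-1-3p) were higher in each DSS colon than in each control colon, and 22.5% of all miRNAs tested were higher without overlap. For miR-125b-5p this depended on the scaling. Scaled over all 12 libraries, control mouse 4 was at 5450 CPM, above DSS mice 1 (5290 CPM) and 9 (5260 CPM). None of the intervals reached above a log2 fold change of 0.97. With scaling by RLE factors, or with DESeq2, 7 of 9 members stayed above 0, and with the grouping of the labels 3 of 9. The medians of the members and of all miRNAs were 0.16 and -0.02 with RLE factors, 0.16 and 0 with DESeq2, and -0.04 and -0.02 with the labels. Scaling by totals alone left 9 of 9 members above 0, with medians of 0.44 and 0.26. Each count of SDE members was 0.

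Marker miRNAs of other cell types were summed in the same colon libraries. The epithelial, stromal and endothelial sums did not overlap between the groups, and the leukocyte, muscle and erythroid sums did. The summed level of the 9 epithelial miRNAs was 55700 to 136000 CPM in DSS colon and 163000 to 204000 CPM in control colon, and 4 of these 9 were SDE and lower. The 4 stromal miRNAs (miR-199a and miR-214 arms) summed to 5030 to 5730 CPM in DSS colon and 3510 to 3710 CPM in controls, with 1 SDE and higher. The 2 endothelial miRNAs, the arms of miR-126a, summed to 6860 to 7340 CPM and 5140 to 5560 CPM, with 0 SDE. The 5 leukocyte miRNAs summed to 389 to 1240 CPM and 293 to 430 CPM, with 2 SDE and higher. The 5 muscle miRNAs summed to 260000 to 354000 CPM and 284000 to 363000 CPM, with 0 SDE, and the 4 erythroid miRNAs to 1720 to 2570 CPM and 1690 to 2350 CPM, with 0 SDE. Of all 542 miRNAs tested in colon, 10.1% were SDE in either direction. Leaving out mouse 2, 4, 7 or 8 in turn gave 0 SDE miRNAs in colon, so these marker calls were then lost. No marker was at 0 in all colon libraries. The summed members, at 27900 to 32900 CPM in DSS colon and 25000 to 30100 CPM in control colon, overlapped between the groups. The part of these cell types in the members' levels was not tested.

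miR-99a-5p and miR-100-5p, which showed the split of mouse 9 from mice 1 and 7, were compared with miRNAs outside the family. Over the 6 colon libraries, log2 CPM of miR-99a-5p was most like that of miR-10b-5p (Pearson's r = 0.964), miR-10a-5p (0.963) and miR-10b-3p (0.958), whose genes sit in the Hox clusters that pattern the body axis. miR-100-5p was most like miR-10b-5p (0.982), miR-10b-3p (0.973) and miR-672-5p (0.970). The 2 members of the pair, from different chromosomes, had r = 0.982 with each other. miR-125a-5p followed other miRNAs, miR-350-5p (0.857), miR-505-3p (0.846) and miR-361-3p (0.846), and had r = 0.042 with miR-99a-5p and 0.155 with its cluster mate miR-99b-5p. Among the members, its r was 0.739 with miR-125b-5p, 0.643 with miR-125a-3p and -0.388 to 0.155 with the rest. These values describe 6 libraries that share their groups and scaling, and the best were picked from all miRNAs tested.

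The same question was asked of blood. Of the 9 members, 7 passed the filter on low counts, while miR-125b-1-3p (1 to 13 counts) and miR-125b-2-3p (2 to 31 counts) did not. Of the 7 tested, 0 were SDE, as were 0% of the 484 miRNAs tested in blood with edgeR. At an unadjusted p under 0.05, 11.6% of all miRNAs passed. DESeq2 called 10 miRNAs of blood, none a member. The median log2 fold change was -0.10 for the members and -0.05 for all miRNAs.

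miR-99a-5p was at 232, 470 and 350 CPM in the blood of DSS mice 1, 7 and 9 and at 346, 396 and 525 CPM in control mice 2, 4 and 8. miR-99b-5p was at 99.8, 267 and 196 CPM in the DSS mice and at 185, 259 and 188 CPM in the controls. miR-100-5p was at 24.0, 44.1 and 28.0 CPM in the DSS mice and at 39.9, 31.9 and 31.4 CPM in the controls. In all 3, mouse 1 was the lowest of the 6 mice and the groups overlapped. The log2 fold changes were -0.27 ± 0.30 for miR-99a-5p (adjusted p = 0.783), -0.17 ± 0.35 for miR-99b-5p (adjusted p = 0.924) and -0.10 ± 0.28 for miR-100-5p (adjusted p = 0.925, all edgeR).

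The miR-125 5p arms had the same order of mice in DSS blood. miR-125a-5p was at 90.0, 247 and 164 CPM in DSS mice 1, 7 and 9 and at 169, 154 and 172 CPM in the controls. miR-125b-5p was at 53.1, 132 and 78.6 CPM in the DSS mice and at 91.6, 98.0 and 93.4 CPM in the controls. For each, mouse 1 was the lowest and mouse 7 the highest of all mice, while the controls lay close together. The log2 fold changes were 0.02 ± 0.34 (adjusted p = 0.985) and -0.10 ± 0.32 (adjusted p = 0.938, both edgeR), with 95% intervals of -0.76 to 0.80 and -0.84 to 0.64. Without mouse 1, 6 of 7 members tested had a log2 fold change above 0, against 2 of 7 with all mice. Over all miRNAs tested in blood, 45% were above 0 with all mice. Without mouse 1 the median log2 fold change was 0.12 for the members and 0.03 for all miRNAs.

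The 3p arms of chromosome 17 were near 1 or 2 CPM in blood. miR-99b-3p ranged from 1.64 to 1.96 CPM in DSS blood and from 1.55 to 1.98 CPM in control blood (log2 fold change -0.05 ± 0.24, adjusted p = 0.955, edgeR). miR-125a-3p ranged from 0.739 to 1.23 CPM and from 0.645 to 1.26 CPM (0.02 ± 0.36, adjusted p = 0.987, edgeR). Their 95% intervals were -0.60 to 0.50 and -0.81 to 0.84 on the log2 scale.

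Over the 6 blood libraries, the members most abundant in their cluster shared none of their 3 most alike miRNAs. miR-99a-5p was most like miR-877-5p (r = 0.969), miR-1843b-3p (0.962) and miR-1947-5p (0.928). miR-99b-5p was most like miR-744-5p (0.997), miR-7653-3p (0.979) and miR-8103 (0.979), and miR-100-5p was most like miR-206-3p (0.961), miR-3074-1-3p (0.959) and miR-205-5p (0.948). Between miR-99a-5p and miR-100-5p, r was 0.614 in blood. Their other r values with 5p members, and those of miR-99b-5p, were 0.717 to 0.924.

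Whether DSS acted differently on the family in blood and colon was tested as an interaction over all 12 libraries. Of the 9 members, 0 were SDE, as were 0% of the 680 miRNAs tested with edgeR, and 13.8% of these had an unadjusted p under 0.05. DESeq2 called 37 miRNAs, none a member. For the 7 members tested in each tissue alone, the differences were -0.18 to 0.30 on the log2 scale (adjusted p of at least 0.823, edgeR). The other members entered this fit only through their counts in colon and support nothing. miR-125b-1-3p gave 0.75 ± 0.69 (adjusted p = 0.637, edgeR) on 1 to 13 counts per blood library, and miR-125b-2-3p gave 1.43 ± 0.77 (adjusted p = 0.416, edgeR) on 2 to 31. Over the alternatives, each mouse left out included, the value of miR-125b-2-3p ranged from 0.63 without mouse 1 to 1.86 without mouse 9.

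**Figure D2:**
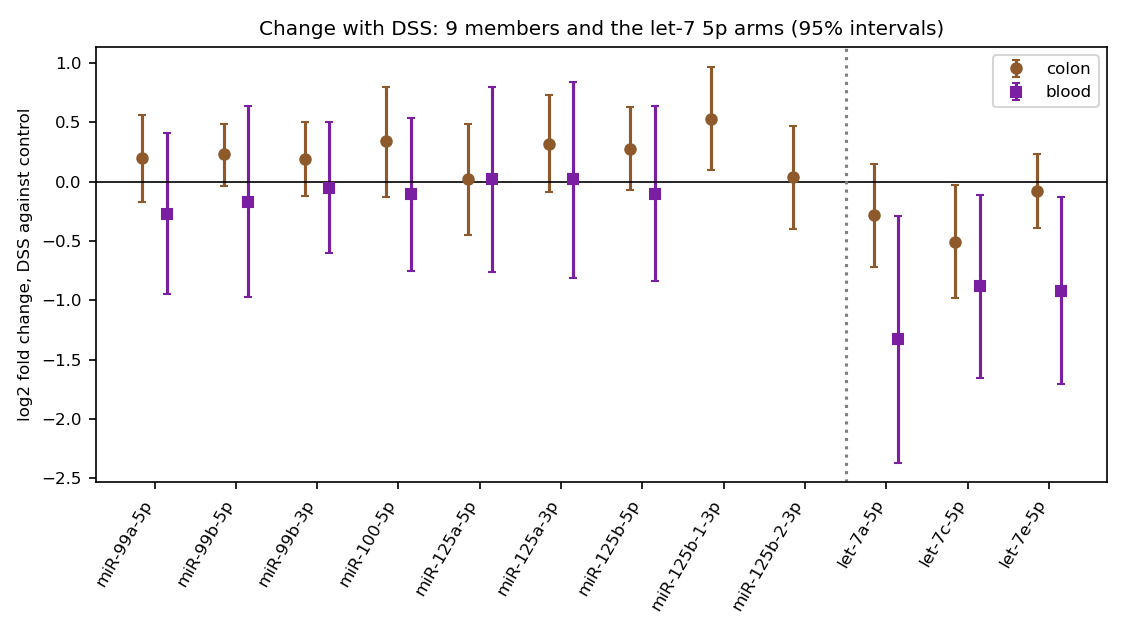
Log2 fold change of DSS against control mice (n = 3 and 3) for the 9 members and, right of the dotted line, the 3 let-7 5p arms, in colon (circles) and blood (squares), with 95% intervals from edgeR; miR-125b-1-3p and miR-125b-2-3p were not tested in blood. All 9 members lie between 0.02 and 0.53 in colon, and the let-7 5p arms lie below 0 in both tissues.

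The 5p arms of let-7 listed with the clusters had log2 fold changes below 0 in both tissues, in colon the opposite sign to the members. Of the 7 arms, 6 were tested in colon and 4 in blood, 0 were SDE in either, and 3 of 6 and 1 of 4 had a log2 fold change above 0 (median 0.09 in colon and -0.90 in blood). let-7c-5p was at 55100, 51300 and 40900 CPM in DSS colon and at 59700, 69800 and 79900 CPM in control colon. Every DSS colon was below every control colon, and 16.1% of all miRNAs tested were lower without overlap (log2 fold change -0.51 ± 0.20, adjusted p = 0.138, edgeR). let-7a-5p overlapped between the groups (-0.28 ± 0.18, adjusted p = 0.322), as did let-7e-5p (-0.08 ± 0.13, adjusted p = 0.681, both edgeR). The let-7 3p arms tested in colon also overlapped, but lay above 0. They were let-7c-1-3p (0.67 ± 0.33, adjusted p = 0.207), let-7e-3p (0.34 ± 0.28, adjusted p = 0.433) and let-7c-2-3p (0.27 ± 0.25, adjusted p = 0.5, all edgeR).

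In blood, let-7a-5p was at 3360, 4230 and 3840 CPM in the DSS mice and at 17000, 7400 and 4280 CPM in the controls. Control mouse 2 stood far above the others and control mouse 8 only just above DSS mouse 7 (log2 fold change -1.33 ± 0.45, adjusted p = 0.360, edgeR). let-7c-5p (-0.88 ± 0.34, adjusted p = 0.367) and let-7e-5p (-0.92 ± 0.35, adjusted p = 0.362, both edgeR) were likewise lower in each DSS mouse than in each control. The groups did not overlap, lower in DSS, for 9.92% of all miRNAs tested in blood.

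The sequences of these arms show how far each can be assigned to a cluster.
let-7a-5p: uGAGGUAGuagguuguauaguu
let-7c-5p: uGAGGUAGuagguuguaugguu
let-7e-5p: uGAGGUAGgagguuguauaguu
let-7a-5p and let-7c-5p differ only by A19G. let-7a-5p is also cut from Mirlet7a-1 on chromosome 13 and let-7c-5p from Mirlet7c-2 on chromosome 15, outside these clusters, so only let-7e-5p belongs to its cluster alone. The listed let-7c-2-3p likewise comes from chromosome 15. It has the sequence of let-7a-1-3p, and their counts were the same to within 1 in every library. The cluster-specific arm let-7a-2-3p of chromosome 9 had 7, 6 and 7 counts in the colon of DSS mice 1, 7 and 9, 1 count in each control colon and 0 in each blood library, too few for the filter.

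Ratios of counts within a library do not depend on how libraries are scaled. Adding 0.5 to each count, let-7c-5p exceeded miR-99a-5p 7.42-, 7.35- and 7.56-fold in the colon of DSS mice 1, 7 and 9 and 11.0-, 12.1- and 13.3-fold in control mice 2, 4 and 8. The DSS colons were nearly equal, also mouse 9, which stood apart in miR-99a-5p itself, and all lay below the controls. The mean log2 ratio was 2.9 ± 0.02 in DSS colon and 3.59 ± 0.14 in control colon (SD, n = 3 each), a difference of -0.70 (two-sided exact permutation p = 0.1, the smallest that 3 against 3 mice allow).

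The ratios taken for the other clusters gave the same direction. Of the 3 let-7 5p arms, only let-7e-5p belongs to its cluster alone. The cluster-specific 3p arms let-7c-1-3p and let-7e-3p had log2 fold changes above 0 in colon, unlike the 5p arms. The log2 ratio of let-7a-5p to miR-100-5p was 2.33 ± 0.23 in DSS colon and 2.92 ± 0.15 in control colon, without overlap (exact permutation p = 0.1). That of let-7e-5p to miR-99b-5p, whose genes lie within 692 bp with Mir125a, was -0.08 ± 0.08 and 0.22 ± 0.14, also without overlap (exact permutation p = 0.1). In blood the same ratios overlapped between DSS and control mice. These 3 ratios were chosen after the levels had been seen, and under the grouping of the labels the colon differences were 0.14, -0.05 and -0.05 in the order given.

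**Figure D3:**
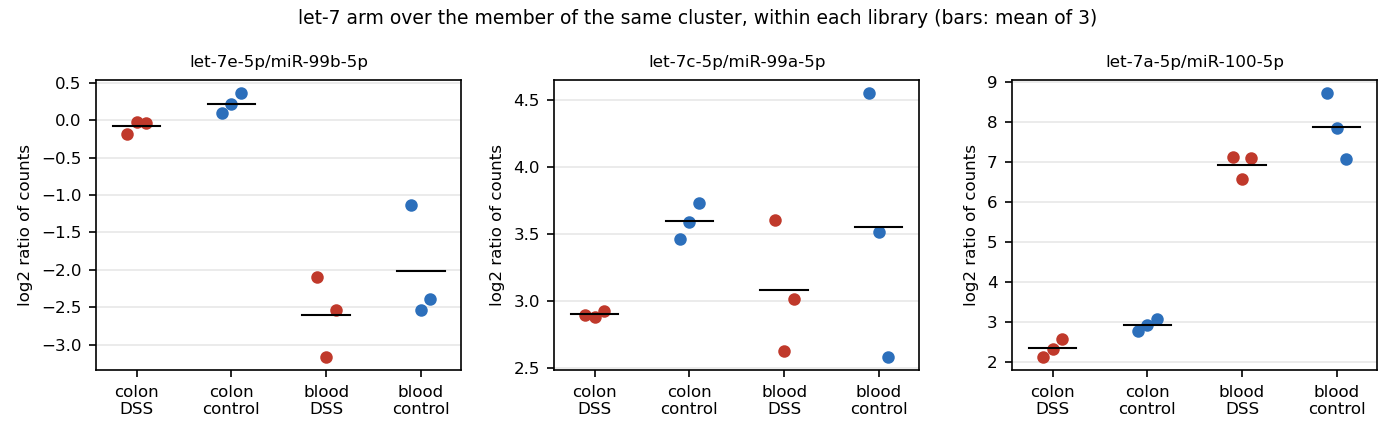
Log2 ratio of counts within each library for a let-7 5p arm over the miR-99 or miR-100 member of the same cluster; points are mice (red DSS, blue control), bars are means of 3, and each panel has its own axis. In colon the DSS mice lie below the control mice in all 3 panels, and in blood they overlap.

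Among the 6 ratios between members, the ratio of miR-125a-5p to miR-125a-3p separated DSS from control colon. It was 215, 195 and 186 in DSS mice 1, 7 and 9 and 218, 277 and 228 in control mice 2, 4 and 8, with mouse 1 just below the lowest control. The log2 difference was -0.27 (exact permutation p = 0.1). The other 5 overlapped in colon. In blood the ratio of miR-125b-5p to the sum of its 3p arms was lower in every DSS mouse (log2 6.98 ± 1.2 and 7.97 ± 0.18, SD, n = 3 each, exact permutation p = 0.1), with mouse 1 at 5.57 far from the rest. The log2 difference was -0.99 with all mice and -0.29 without mouse 1. The 5 others overlapped in blood. With 3 mice against 3, none of these differences can reach p of 0.05.

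The last comparison asked how the family is distributed between the tissues. The 7 members that passed the filter in each tissue alone were all SDE and lower in blood, from 9.41-fold for miR-99a-5p to 103-fold for miR-100-5p, by edgeR over the 12 libraries. miR-125b-1-3p and miR-125b-2-3p passed the filter of this fit only through their counts in colon, where they are high, so their calls, also SDE and lower, are not counted here. Of the 680 miRNAs tested, 88.7% were SDE and 51% SDE and lower, so the call itself says little about the family. The median log2 fold change of blood against colon was -4.61 for these 7 members and -0.86 for all miRNAs. Scaling by totals alone moved these medians to -5.39 and -1.59. The levels below are scaled over all 12 libraries and differ from the levels within a tissue.

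The clusters were unequal in this. From chromosome 16, miR-99a-5p was at 378 to 742 CPM (median 404) in blood and at 4090 to 5590 CPM (median 4600) in colon. Its log2 fold change was -3.23 ± 0.24 (SE, n = 6 and 6, adjusted p = 3.76e-09, edgeR). From chromosome 9, miR-100-5p was at 31.7 to 67.9 CPM (median 41.8) in blood and at 3550 to 5690 CPM (median 4100) in colon, a log2 fold change of -6.68 ± 0.27 (adjusted p = 6.34e-12, edgeR). These members, which differ by a single base and have near equal levels in colon, were thus 9.41-fold and 103-fold lower in blood.

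The 3p arms of the miR-125b genes were too scarce in blood for a firm fold. miR-125b-2-3p of chromosome 16 was at 0.105 to 1.30 CPM (median 0.340) in blood and at 11.5 to 16.5 CPM (median 12.9) in colon. miR-125b-1-3p of chromosome 9 was at 0.0492 to 0.544 CPM (median 0.224) in blood and at 54.6 to 100 CPM (median 70.5) in colon. The blood values rest on 2 to 31 and 1 to 13 counts per library. The chromosome 9 arm was higher in every colon, and the chromosome 16 arm in 4 of 6 blood libraries. miR-125b-5p, which sums both genes, was at 88.3 to 203 CPM (median 101) in blood and at 4140 to 5690 CPM (median 5280) in colon, 41.9-fold lower.

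On chromosome 17 the arms spread from 11.0-fold to 28.7-fold. miR-99b-5p was at 166 to 410 CPM (median 244) in blood and at 2610 to 3120 CPM (median 2730) in colon, 11.0-fold lower. miR-125a-5p was at 150 to 380 CPM (median 186) and at 4370 to 6950 CPM (median 5060), 24.4-fold lower. The 3p arms were 28.7-fold (miR-99b-3p) and 17.9-fold (miR-125a-3p) lower. let-7e-5p, between these genes, was at 38.3 to 92.3 CPM (median 46.2) in blood and at 2700 to 3390 CPM (median 2920) in colon, 58.2-fold lower.

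The let-7 arms of the other clusters kept more of their level in blood, let-7c-5p 9.12-fold and let-7a-5p 3.56-fold lower, and both are also cut from genes elsewhere. miR-351-5p, which shares the miR-125 5p seed but is cut from another gene, was 1.97-fold higher in blood (log2 fold change 0.98 ± 0.17, adjusted p = 6.64e-05, edgeR). It was at 107 to 149 CPM (median 117) in blood, within the range of miR-125b-5p and just under that of miR-125a-5p there, while in colon it was at 55.4 to 70.3 CPM (median 62.5).

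**Figure D4:**
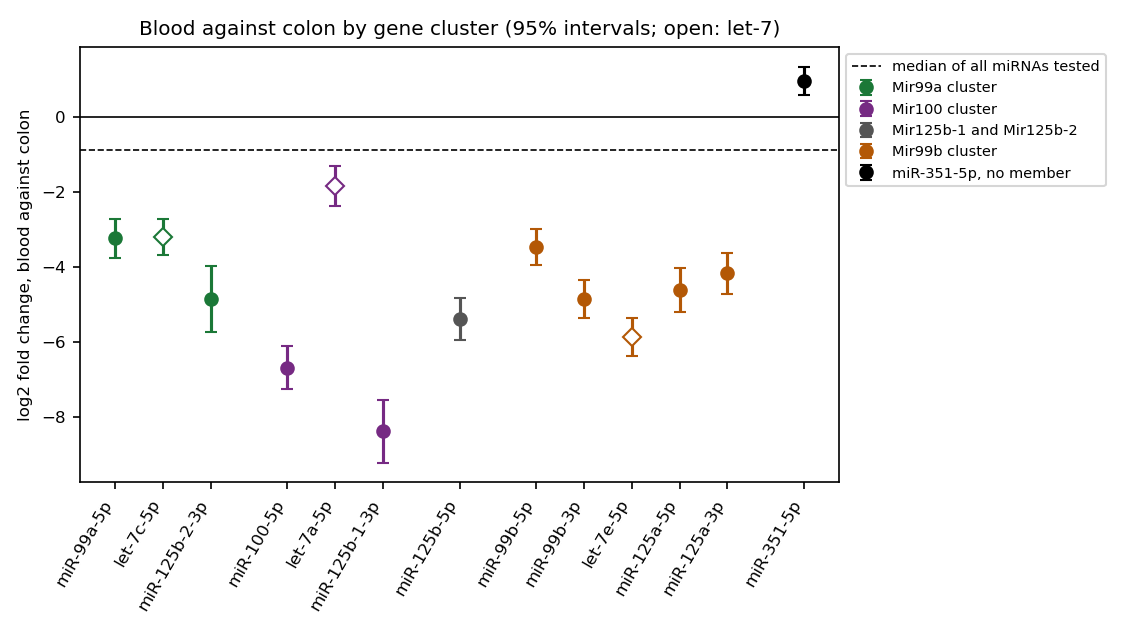
Log2 fold change of blood against colon (n = 6 and 6, edgeR, 95% intervals) for the members (filled), the let-7 5p arms (open diamonds) and miR-351-5p, grouped by gene cluster; the dashed line is the median of all miRNAs tested, -0.86. Of the members that passed the filter in each tissue alone, miR-100-5p lies lowest at -6.68; miR-125b-1-3p and miR-125b-2-3p were tested only through their counts in colon, and miR-351-5p alone lies above 0.

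The within-library ratios gave the test of these differences between members. miR-99a-5p made up 49.5%, 49.5% and 53.5% of the counts of the pair miR-99a-5p and miR-100-5p in DSS colons 1, 7 and 9 and 52.1%, 54.0% and 52.6% in control colons 2, 4 and 8. In blood it made up 90.7%, 91.4% and 92.6% in the DSS mice and 89.7%, 92.5% and 94.3% in the controls. The exact binomial 95% intervals were within 89.0% and 94.7% in every blood library and within 49.3% and 54.3% in every colon library, and cover counting error only. The tissues did not overlap, while the DSS and control mice overlapped in each. The mean log2 ratio was 0.11 ± 0.11 in colon and 3.52 ± 0.33 in blood (SD, n = 6 each), a 10.7-fold difference, in the same direction in 6 of 6 mice (two-sided exact permutation p = 0.00216, 0.00324 adjusted over the 6 ratios). The permutation test takes the libraries as independent, though each mouse gave both tissues. An exact sign-flip test within mice, which keeps the pairs and was not adjusted over the 6 ratios, gave p = 0.0312. Both raw p-values are the smallest that these designs allow.

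The 3p arms of the miR-125b genes were compared in the same way, at low counts in blood. miR-125b-2-3p made up 10.9%, 18.5% and 10.3% of the counts of both arms in DSS colons 1, 7 and 9 and 16.4%, 18.6% and 16.8% in control colons 2, 4 and 8. In blood the arms had only 7 to 44 counts together, and the share was 70.5%, 84.2% and 25% in the DSS mice and 87.5%, 28.6% and 77.8% in the controls. Mice 4 and 9, with 7 and 8 counts, had exact 95% intervals of 3.67% to 71.0% and 3.19% to 65.1%, which take in the colon shares, while the lowest bound of the other 4 was 40.0%. The difference of the mean log2 ratio was 3.32, 9.98-fold (exact permutation p = 0.00216, adjusted p = 0.00324, sign-flip p = 0.0312), in the same direction in 6 of 6 mice. Neither arm passed the filter on low counts in blood, which the ratios do not use. This difference therefore rests on few counts, and its p-values are given as a description only.

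The proportion of 5p to 3p arms was also compared between the tissues. miR-99b-5p exceeded miR-99b-3p 37.7- to 44.4-fold in colon and 50.5- to 164-fold in blood, without overlap, a 2.55-fold difference (exact permutation p = 0.00216, adjusted p = 0.00324). The ratio of miR-125b-5p to its 3p arms was 3.16-fold higher in blood on average (exact permutation p = 0.013, adjusted p = 0.0156), a call lost without mouse 9 (adjusted p = 0.0571, exact permutation test). Mouse 1, at 47.4 in blood and 49.8 in colon, went against the other mice, and the sign-flip p was 0.0625. For miR-125a-5p and miR-125a-3p the tissues overlapped (log2 difference -0.48, exact permutation p = 0.11).

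Between the genes of the compact chromosome 17 cluster, the balance turned with the tissue. miR-99b-5p was at 0.386 to 0.634 times the counts of miR-125a-5p in colon and at 1.08 to 1.69 times in blood. The ranges did not overlap (log2 difference 1.15, exact permutation p = 0.00216, adjusted p = 0.00324, in 6 of 6 mice). Of the 6 ratios compared, 5 differed between the tissues by the exact permutation test after adjustment, a test without the pairing by mouse. Of these 5, 4 did not overlap and had the same direction in 6 of 6 mice (sign-flip p = 0.0312 each, exact, not adjusted). The ratio of miR-125b-5p to its 3p arms did not pass the paired test. These 3p arms failed the filter in blood. That ratio and the ratio of miR-125b-2-3p to miR-125b-1-3p, among the 4, thus rest on few counts and are given as a description. The levels in blood include all blood cells and any RNA released into it, and their sources were not tested.

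**Figure D5:**
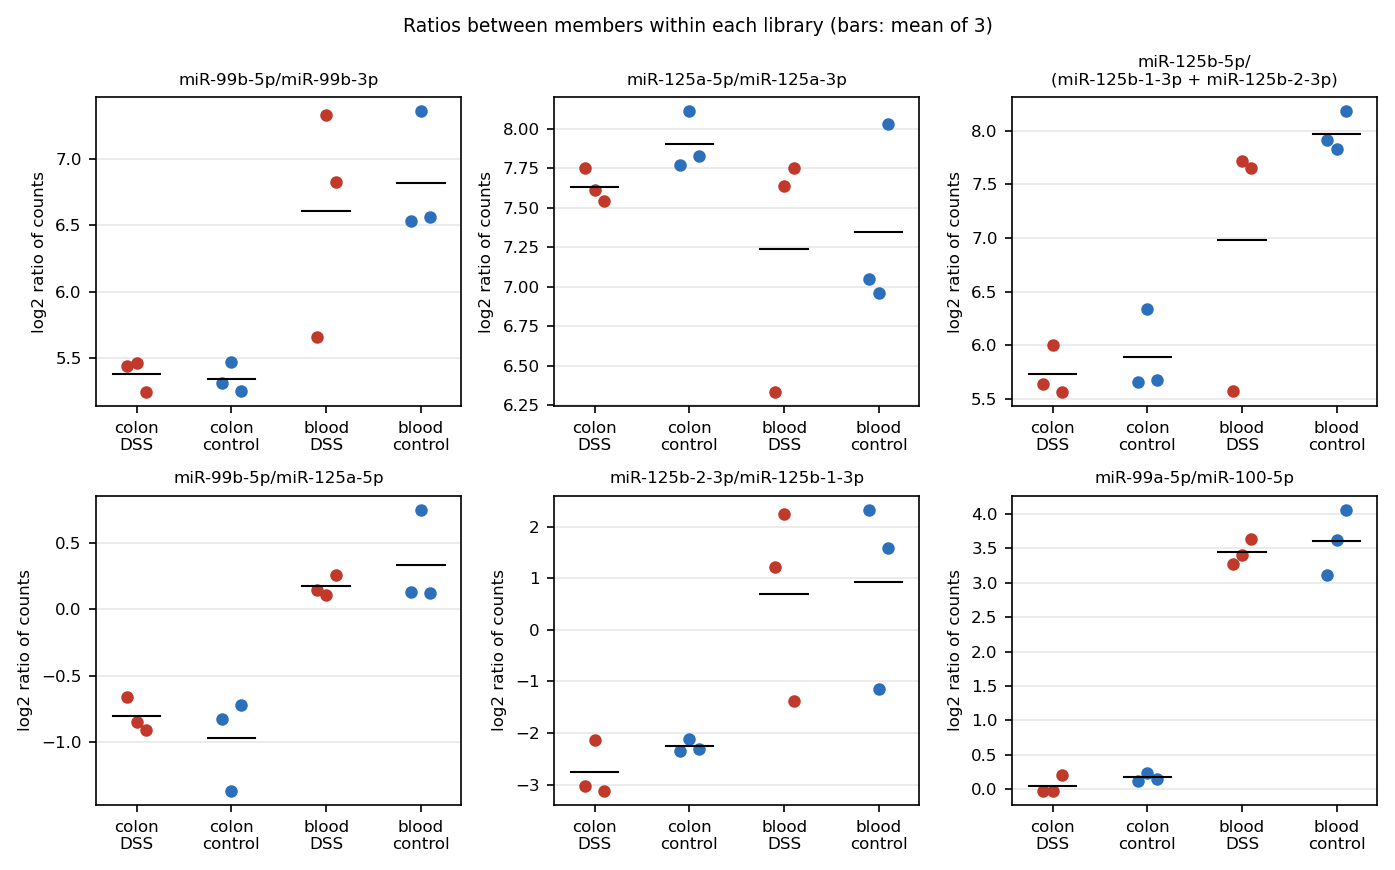
Log2 ratio of counts between members within each library for the 6 ratios, with 0.5 added to each count; points are mice (red DSS, blue control), bars are means of 3, and each panel has its own axis. For miR-99a-5p/miR-100-5p the colons lie between -0.03 and 0.23 and the bloods between 3.12 and 4.06, and for miR-125b-2-3p/miR-125b-1-3p the bloods spread from -1.38 to 2.32 above the colons.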

How the data were processed

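Small RNA libraries from the colon and blood of 6 mice were analysed. The authors trimmed the reads with Flexbar, collapsed them with fastx-toolkit, counted them on mature miRNAs of miRBase 22 with miRDeep2 (2.0.1.0) and deposited the raw count of each miRNA. The authors also deposited a normalized signal per tissue, the count divided by a DESeq2 size factor, which was used only in an alternative. No molecular identifiers are named, so total counts and the binomial intervals of shares cover counting error only, while the intervals from edgeR include the spread between mice.

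Counts were fitted in R (4.3.3) with edgeR (4.0.16), using filterByExpr, TMM factors and the quasi-likelihood test, in each tissue alone for DSS against control and over 12 libraries, without a block, for blood against colon and the interaction. P-values were adjusted by Benjamini-Hochberg over all miRNAs tested. SEs were derived from the F statistic and the log2 fold change, and intervals use the degrees of freedom of that test. CPM are scaled by TMM. Ratios within libraries, with 0.5 added to each count, were compared with two-sided exact permutation tests (SciPy 1.17.1). Each script for many miRNAs was tested on simulated data. There, a true log2 fold change of 1 was recovered for 62.7% of changed miRNAs in colon and 42.5% in blood. Between the tissues 69.2% were recovered and for the interaction 7.94%, so a count of 0 SDE can miss such changes.

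The named miRNAs are all members, the listed let-7 arms, miRNAs with a member's seed, and for the most abundant member of each cluster the 3 non-members with the highest correlation. The members and lists were chosen with earlier results of these data known. Mouse numbers are shared by the colon and blood libraries, so they pair the tissues; the deviations of same-numbered libraries from their group means correlated at -0.31 to 0.145 over 357 miRNAs. Alternatives were DESeq2 (1.42.0), RLE factors, totals alone, no filter, identical sequences kept once, each mouse left out, the grouping of the labels, all 12 libraries in 1 fit, limma (3.58.1) on log2(normalized signal + 1), a replicate block and 1 added to counts in ratios. Samples are mice, and nothing further is stated on how RNA preparations were batched. The total RNA libraries were not analysed here.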

Additional observations from a re-analysis of the deposited data

How the results depend on the processing

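The number of SDE members was 0 of 9 in colon, 0 in blood and 0 for the interaction in every alternative run for that comparison, each mouse left out included. For blood against colon, the 7 members tested in each tissue alone were SDE and lower in every alternative run. Mouse as a replicate block, the paired analysis of the tissues, kept these 7 SDE and lower for blood against colon. It gave 0 SDE members for the interaction and changed no call. The block was run only for these comparisons, and limma and the fit of 12 libraries in place of 1 tissue only for DSS against control. For blood against colon, 2 of the 9 passed the filter only through colon, and their calls are not counted. The background in colon was less stable: 55 miRNAs were SDE with all mice, 16 with RLE factors, 0 without mouse 2, 4, 7 or 8, 0 in the fit of 12 libraries and 0 with the grouping of the labels. In blood 0 were SDE by edgeR, 10 by DESeq2 and 25 without the filter, and for the interaction 37 by DESeq2, 27 without the filter and 8 with RLE factors. The cause was not tested.

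Some log2 fold changes of members turned sign, none of them called. In colon, miR-125a-5p and miR-125b-2-3p gave -0.05 and -0.03 by DESeq2, -0.04 and -0.03 with RLE factors, -0.02 and 0.0 in the fit of 12 libraries and -0.02 and -0.05 by limma. With the grouping of the labels, miR-99b-5p gave -0.04, miR-99b-3p -0.13, miR-125a-3p -0.15, miR-125b-5p -0.04, miR-125b-1-3p -0.16 and miR-125b-2-3p -0.17 in colon, and miR-99b-3p 0.05 and miR-125a-5p -0.50 in blood. Blood miR-99b-3p gave 0.0 by DESeq2 and RLE factors and 0.01 by limma, where miR-125a-5p gave -0.05. With totals alone, blood miR-99b-5p gave 0.01, miR-99b-3p 0.17, miR-100-5p 0.08 and miR-125b-5p 0.06, and in the fit of 12 libraries 0.11, 0.23, 0.20 and 0.19. Totals alone moved the median of all miRNAs from 0.04 to 0.26 in colon and from -0.05 to 0.15 in blood.

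Leaving out each mouse gave, in colon, -0.11 to 0.25 for miR-125a-5p and -0.14 to 0.12 for miR-125b-2-3p. miR-100-5p and miR-99a-5p kept their sign in colon, at 0.19 to 0.52 and 0.09 to 0.32. In blood it gave -0.49 to 0.01 for miR-99a-5p, -0.48 to 0.19 for miR-99b-5p, -0.09 to 0.06 for miR-99b-3p, -0.36 to 0.12 for miR-100-5p, -0.34 to 0.37 for miR-125a-5p, -0.20 to 0.24 for miR-125a-3p and -0.48 to 0.21 for miR-125b-5p. The let-7c-5p/miR-99a-5p ratio of blood to colon, chosen after seeing the data, gave a log2 difference of 0.07 with all mice and -0.14 to 0.31. With the grouping of the labels, the log2 difference of miR-125a-5p/miR-125a-3p was 0.22 in colon and -1.03 in blood. The 5 ratios called between the tissues by the exact permutation test, adjusted over the 6 ratios, kept their direction and call with 1 added to counts and without each mouse, except that of miR-125b-5p to its 3p arms, whose log2 difference of 1.49 to 2.01 was no longer called without mouse 9 (1.58, exact permutation adjusted p = 0.0571). The 3p arms had 1 to 78 counts in blood, too few for the filter in miR-125b-1-3p and miR-125b-2-3p, so the ratios that hold these are given as a description.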
